A study of Mus musculus with 10 samples.

Results

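The 6 genes described here take bile acids through the enterocyte of the ileum and signal that they have arrived. They are Slc10a2, Fabp6, Slc51a, Slc51b, Nr1h4 and Fgf15. They were chosen by Ensembl gene ID (ENSMUSG00000023073, ENSMUSG00000020405, ENSMUSG00000035699, ENSMUSG00000053862, ENSMUSG00000047638 and ENSMUSG00000031073, in this order), and every ATAC-seq peak carrying 1 of these IDs was taken, 34 of 246479 peaks and 6 of 44580 gene IDs in all. Chromatin accessibility was measured in intestinal epithelial cells (IECs) of 5 WT mice and 5 KO mice in which the zinc transporter Zip14 (Slc39a14) was deleted. Between genotypes, the summed accessibility of Nr1h4 and of Slc51b was lower in KO mice, though each call was lost in part of the alternatives tried (7 of 18 for Nr1h4 and 14 of 18 for Slc51b), that of Slc10a2, Slc51a and Fgf15 did not pass the test, and Fabp6 had a higher mean in KO mice that did not pass it either.

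Bile acids leave the gut lumen through the apical transporter ASBT (Slc10a2), cross the cell bound to the ileal bile acid binding protein (Fabp6), and leave it at the basolateral side through an exporter built of the subunits OSTα (Slc51a) and OSTβ (Slc51b). Inside the cell they activate the nuclear receptor FXR (Nr1h4), which is known to switch on Fabp6, Slc51a, Slc51b, the hormone Fgf15 and the corepressor SHP (Nr0b2), while SHP lowers Slc10a2. FGF15 travels to the liver and turns down bile acid synthesis. Within the small intestine of the mouse, several of these genes, though not all, are expressed mostly in the ileum, and GATA factors hold some of them down in the proximal part.

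The labels give the tissue as duodenum, and the study's methods include the upper jejunum, so the genes were measured in a part of the gut where several of them are normally little used. The KO mice lack Zip14 in the whole body, through a targeted deletion reaching from intron 4 to intron 8, and were bred with their WT controls on a C57BL/6 background, as young adults. The deletion is present in every cell type and throughout life. The IECs were purified and sorted before nuclei were treated with the Tn5 transposase, which cuts where DNA is open, and reads were counted over 1 set of peaks shared by all mice. Each mouse gave 1 library.

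Total counts were between 5202949 and 15775481 in WT mice and between 4731176 and 6094983 in KO mice, and were lower in KO mice (exact two-sided permutation test, p = 0.0397, n = 5 and 5). A part of depth in the differences below was not tested beyond the alternatives given with them. Of 246479 peaks, 1 had at least 5 counts in every WT mouse and 0 in every KO mouse, with 17, 8, 21, 11 and 16 counts in WT1 to WT5. Its gene ID was not paired with a symbol here, so the gene it belongs to is not named. Slc39a14 was likewise not paired with an ID and was not analysed here. Markers of other cell types and lists of proximal and ileal enterocyte genes were not analysed here for the same reason, so neither the purity of the cells nor the labelled segment was checked against markers. In bulk IECs, fewer cells with an open region and less opening per cell cannot be told apart.

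The genes differ widely in how many peaks carry their ID. Nr1h4, the longest of them at 79412 bases on chromosome 10 (GRCm38.p6, 89454234 to 89533645), has 14 peaks. Slc51a on chromosome 16 (32475578 to 32487879) has 7, Fabp6 on chromosome 11 (43596040 to 43601562) has 5, Slc51b on chromosome 9 (65412753 to 65422773) has 4, and Fgf15 on chromosome 7 (144896532 to 144900953) has 3. Slc10a2 on chromosome 8 (5083219 to 5105287) has a single peak. The files give neither the position nor the length of a peak, so peaks are numbered by the genome order that the entries imply, from the low coordinate of the chromosome upward, and cannot be called promoter, exon or intron. For the same reason, levels cannot be set per length. They are compared between genotypes within a gene, or as a ratio of genes within a mouse, and the size of such a ratio is not read as a difference in level between genes.

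The proximal promoters of the 3 genes on which the comparisons turn are given here as the 250 bases before a RefSeq start of transcription, read 5′ to 3′ on the minus strand of GRCm38.p6. Capitals mark matches to the FXR element, searched as AGGTCA half-sites in an inverted repeat 1 base apart with at most 2 mismatches in all. Fabp6 lies at chr11:43601563-43601812, Nr1h4 at chr10:89506659-89506908 and Slc51b at chr9:65422774-65423023. The windows of Fabp6 and Slc51b adjoin the end of the gene's span, while that of Nr1h4 lies inside its span, before an internal start, and the bases before the outermost start of Nr1h4 were not searched.
Fabp6: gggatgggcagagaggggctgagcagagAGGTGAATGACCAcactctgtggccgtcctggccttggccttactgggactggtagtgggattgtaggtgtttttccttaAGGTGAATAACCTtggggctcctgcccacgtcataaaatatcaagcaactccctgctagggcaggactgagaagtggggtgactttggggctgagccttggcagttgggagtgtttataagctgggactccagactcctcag
Nr1h4: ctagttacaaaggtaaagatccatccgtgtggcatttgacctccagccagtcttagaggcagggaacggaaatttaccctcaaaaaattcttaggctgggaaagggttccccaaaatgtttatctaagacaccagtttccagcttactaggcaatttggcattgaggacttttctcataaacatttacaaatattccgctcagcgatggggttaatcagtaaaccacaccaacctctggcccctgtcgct
Slc51b: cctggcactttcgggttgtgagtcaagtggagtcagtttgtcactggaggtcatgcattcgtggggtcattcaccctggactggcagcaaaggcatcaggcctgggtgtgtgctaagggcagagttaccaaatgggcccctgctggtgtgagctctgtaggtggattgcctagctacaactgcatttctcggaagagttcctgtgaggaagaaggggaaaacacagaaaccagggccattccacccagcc

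Fabp6 holds 2 such matches, each with 2 mismatches. The first, AGGTGAATGACCA, lies 222 to 210 bases before the start. The other, AGGTGAATAACCT, lies 142 to 130 bases before it and is the bile acid response element known for this gene. Of 32851 RefSeq promoters of this length, 0.959% hold at least 1 match, and none was found in the windows of Slc10a2, Slc51a, Slc51b, Nr1h4 or Nr0b2. For GATA factors only the sequence AGATAA was searched, on either strand. It begins 131 bases before that internal start of Nr1h4 and was not found in the windows of Slc10a2, Fabp6, Slc51a, Slc51b or Nr0b2, while 9.99% of promoters hold 1. Other forms of the GATA site were not searched, so these windows cannot be called free of GATA sites. Fgf15 had no entry. A match is a description of the letters, and whether a peak covers any of these windows was not analysed here.

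The receptor was the member with the clearest difference. Summed over its 14 peaks, Nr1h4 had 95.9, 94.8, 108, 109 and 112 CPM (counts scaled to a common library size by TMM factors) in WT1 to WT5. The KO mice, KO6 to KO10, had 71, 86.8, 86.0, 77.6 and 72.4 CPM. Every KO mouse was below every WT mouse. The mean was 104 ± 8.03 CPM in WT and 78.7 ± 7.4 CPM in KO mice (SD, n = 5 each), a change of -24.4% with a 95% interval of -32.9% to -14.9%. On the log2 scale the fold change was -0.40 ± 0.0819 (SE), with an adjusted p of 0.0311 by edgeR's quasi-likelihood test over 36715 gene IDs. An exact two-sided permutation test over the mice gave p = 0.00794, the smallest that 5 against 5 mice allow.

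The call was lost with 1 surrogate variable in the fit (adjusted p = 0.0633, edgeR) and by the gene's strongest peak alone (0.0735), and it depended on single mice. The adjusted p was between 0.0138 and 0.106 when each mouse was left out in turn, and was above 0.05 without WT3 (0.0552), WT5 (0.106), KO6 (0.0669), KO9 (0.0806) or KO10 (0.0710), the 5 of 10 such fits in which edgeR called 0 gene IDs of the whole table, with 7147 to 8650 at an unadjusted p under 0.05. The log2 fold change was below 0 in all 18 alternatives, from -0.44 to -0.30.

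The exporter's OSTβ subunit, Slc51b, showed the next difference. Its summed counts were 49.7, 56.6, 61.2, 54.6 and 68.3 CPM in WT1 to WT5 and 44.7, 48.0, 46.4, 48.7 and 47.1 CPM in KO6 to KO10. The groups did not overlap, but the lowest WT mouse and the highest KO mouse lay next to each other, and the WT mice were far more spread. Means were 58.1 ± 7.07 CPM in WT and 47.0 ± 1.53 CPM in KO mice (SD, n = 5 each). This is a log2 fold change of -0.31 ± 0.0865 (SE), a change of -19.4% (95% interval -29.0% to -8.67%), and the adjusted p was 0.0498 (edgeR; exact permutation p = 0.00794). This p sat at the threshold, and of the 10 fits without 1 mouse only those without WT1 or WT2 stayed under 0.05, over a range of 0.0396 to 0.166. It was also lost with total counts in place of TMM factors (0.0734), with loess offsets (0.176) and with the peaks that pass the filter on low counts alone (log2 fold change -0.22, adjusted p = 0.126).

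The gene of the partner subunit OSTα did not pass the test. Slc51a had 97.8, 96.4, 103, 89.2 and 112 CPM in WT1 to WT5, and 69.6, 96.9, 97.7, 102 and 92.9 CPM in KO6 to KO10. KO6 was alone below the WT mice, and the other 4 KO mice lay within their range. Its log2 fold change was -0.12 (95% interval -0.32 to 0.08, adjusted p = 0.410, edgeR), and ranged from -0.16 without WT4 or with 1 surrogate variable to -0.04 without KO6 and -0.01 with loess offsets. Within a mouse, log2 CPM of Slc51b minus that of Slc51a was -0.78 ± 0.111 in WT and -0.95 ± 0.180 in KO mice (SD, n = 5 each). The difference of -0.17 did not pass an exact two-sided permutation test (p = 0.143), so the subunits were not shown to differ in response. Without KO6 it was -0.25 (exact permutation p = 0.0159), a comparison added after the values were seen.

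For the apical importer, the single Slc10a2 peak had 19.5, 13.0, 20.1, 21.9 and 18.5 CPM in WT1 to WT5 and 14.6, 15.2, 18.1, 14.3 and 15.7 CPM in KO6 to KO10. WT2 was the lowest of all 10 mice, and all KO mice lay between it and the other WT mice. The log2 fold change was -0.27 ± 0.129 (SE, 95% interval -0.54 to 0.00) with an adjusted p of 0.184 (edgeR), and without WT2 it was -0.36 with an adjusted p of 0.0504. On the scale of single peaks, with library sizes and TMM factors taken from the peaks that pass the filter, the same counts gave -0.18 (adjusted p = 0.498), which shows how far the 2 scalings lie apart.

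Fgf15, the hormone of the pathway, did not pass the test. It had 6.85, 8.75, 6.56, 8.82 and 9.08 CPM in WT1 to WT5 and 8.24, 8.09, 6.94, 6.78 and 7.95 CPM in KO6 to KO10, so that every KO mouse lay within the WT range. Its log2 fold change was -0.08 (95% interval -0.40 to 0.24, adjusted p = 0.750, edgeR), and it ranged from -0.22 with loess offsets to 0.01 with 1 surrogate variable in the fit. These values rest on 38 to 151 counts per mouse.

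Fabp6, the carrier inside the cell, was the 1 member whose mean was higher in KO mice, and the one with the fewest counts. Its summed raw counts were 24, 17, 33, 39 and 70 in WT1 to WT5 and 38, 17, 26, 28 and 23 in KO6 to KO10. Scaled, these were 3.22, 3.46, 3.49, 4.78 and 4.21 CPM in WT and 6.39, 3.20, 4.4, 4.87 and 4.81 CPM in KO mice. KO6 stood above all others, KO7 was the lowest of the 10 mice, and 3 KO mice lay above every WT mouse. The mean was 3.83 ± 0.645 CPM in WT and 4.74 ± 1.14 CPM in KO mice (SD, n = 5 each). The log2 fold change was 0.29 ± 0.206 (SE), and its 95% interval, -0.14 to 0.73, reached from a small decrease to a rise, with an adjusted p of 0.355 (edgeR; exact permutation p = 0.183). Without KO6 it was 0.16 and with loess offsets 0.03, while without KO7 it was 0.40, with 1 surrogate variable 0.41 and by the strongest peak 0.44.

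**Figure D1:**
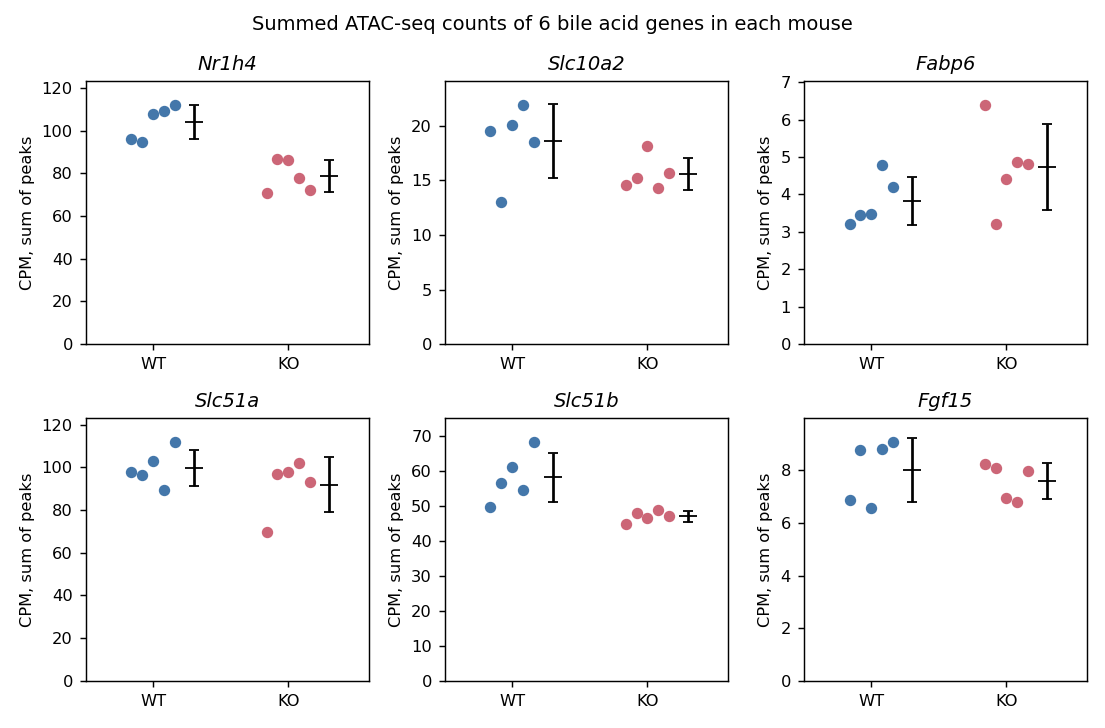
Summed counts of each gene per mouse, in CPM scaled by TMM factors (vertical axis from 0, a separate scale for each gene). Points are mice, and black marks with bars show the mean ± SD of 5 mice. The KO points lie below all WT points for Nr1h4 and Slc51b and overlap them for the other genes.

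Of the 6 members, all of which passed the filter, 2 were lower in KO mice at an adjusted p under 0.05 and 0 were higher, where 1.01% of 36715 gene IDs were lower and 2.90% higher. The same 2 had all KO mice below all WT mice, which held for 2.84% of gene IDs. The median log2 fold change was -0.20 over the members and -0.004 over all gene IDs tested. Nr0b2, the FXR target that encodes SHP and the only 1 of 30 other bile acid genes on the list that could be paired with an ID, had 50.7 ± 4.29 CPM in WT and 47.8 ± 2.07 CPM in KO mice (SD, n = 5 each). Its log2 fold change was -0.08 (95% interval -0.24 to 0.09, adjusted p = 0.520, edgeR), and its sign turned with loess offsets (0.03). Its WT and KO mice overlapped.

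The peaks were then tested one by one. Of the 34, 23 passed the filter on low counts and 11 did not, among them 4 of the 5 Fabp6 peaks. At an adjusted p under 0.05 edgeR called 0 of 81022 peaks, with 12978 at an unadjusted p under 0.05, and DESeq2 called 552, none of them among the members. At an unadjusted p under 0.05, 5 member peaks were lower in KO mice and 0 higher. Over all peaks tested these shares were 5.65% lower and 10.4% higher. The 5 comprise 4 peaks of Nr1h4 and 1 of Slc51b.

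At Nr1h4, most peaks had a lower estimate in KO mice, and none passed after adjustment. Of its 11 tested peaks, 10 had a lower estimate in KO mice and peak 3 a higher one (log2 fold change 0.08), with a median of -0.34 over the 11 beside -0.003 over all peaks tested. Peak 1, the strongest, had 26.3, 29.0, 29.7, 28 and 30.2 CPM in WT1 to WT5 and 20.4, 23.6, 24.8, 23.1 and 21.4 CPM in KO6 to KO10, so that every KO mouse was below every WT mouse. Its log2 fold change was -0.34 ± 0.0942 (SE), with an unadjusted p of 0.00204 and an adjusted p of 0.0998 (edgeR). It was joined in this by peak 14, at the far end, with 9.63, 10.1, 12.6, 17.3 and 12.9 CPM in WT1 to WT5 and 9.32, 8.99, 9.60, 9.24 and 9.62 CPM in KO6 to KO10. There the highest KO and the lowest WT mouse nearly met. Its log2 fold change was -0.43, with an adjusted p of 0.184 (edgeR). Complete separation in this direction held for 1.21% of all peaks tested.

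Peak 10 of Nr1h4 had the most negative estimate of any member peak. Its raw counts were 15, 9, 46, 36 and 59 in WT1 to WT5 and 10, 9, 11, 12 and 5 in KO6 to KO10, or 2.19, 2.02, 5.13, 4.82 and 3.72 CPM against 1.98, 1.88, 2.07, 2.41 and 1.2 CPM. WT3, WT4 and WT5 stood above all KO mice, while WT1 and WT2 lay within the KO range. The log2 fold change was -0.93 (95% interval -1.55 to -0.31, adjusted p = 0.136, edgeR). Peak 12, the last of the 4, had a log2 fold change of -0.38 (adjusted p = 0.267, edgeR), with KO6 as its lowest mouse at 5.75 CPM and the other KO mice between 9.14 and 10.4 CPM.

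**Figure D2:**
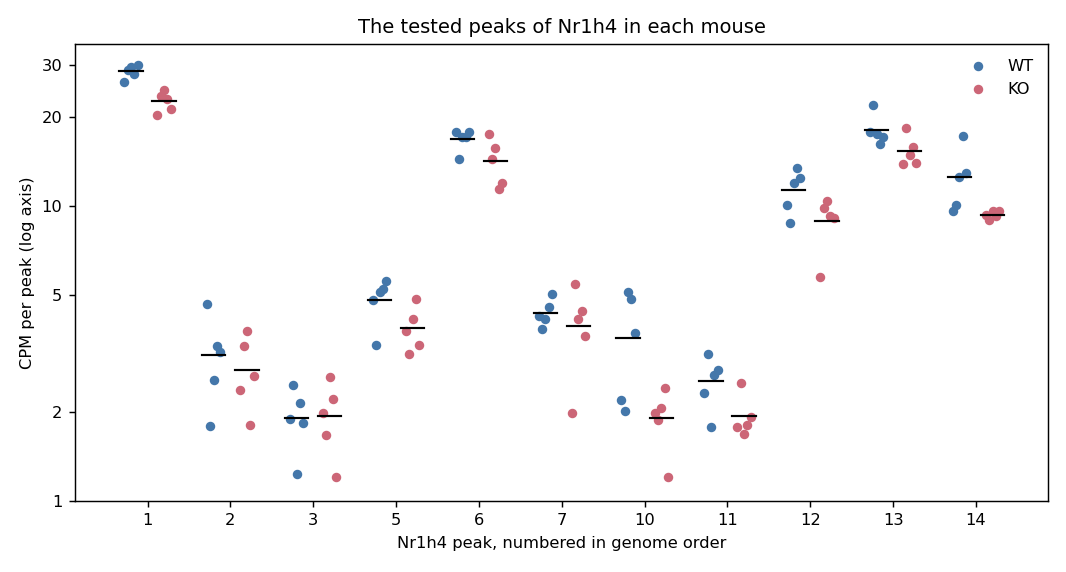
The 11 tested peaks of Nr1h4 in genome order, in CPM on a log axis, with 1 point per mouse and a black line at the mean of each genotype. The KO mean lies below the WT mean in every peak but peak 3, and the points separate fully in peaks 1 and 14.

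Slc51b put most of its counts into 1 peak. Peak 2 held between 72.6% and 80.6% of the gene's counts in the 10 mice, and had 39.8, 50.4, 49.1, 43.4 and 52.2 CPM in WT1 to WT5 and 42.2, 42.0, 38.8, 42.2 and 40.7 CPM in KO6 to KO10. WT1 lay among the KO mice. Its log2 fold change was -0.19 (95% interval -0.39 to 0.00, adjusted p = 0.324, edgeR). Peak 3, far weaker, gave the gene's largest estimate, -0.65 (95% interval -1.18 to -0.11, adjusted p = 0.218, edgeR). WT5 had 8.82 CPM where the other WT mice had 3.82 to 6.16 CPM and the KO mice 2.78 to 5.22 CPM, and without WT5 the estimate was -0.38 (adjusted p = 0.546, edgeR).

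In Slc51a the 6 tested peaks had estimates on both sides of 0, with 3 lower and 3 higher, from -0.15 in peak 5 to 0.23 in peak 2 on the log2 scale. Without 1 mouse, peak 5 ranged from -0.23 (without KO7) to -0.07 (without KO6), and peak 2 from 0.07 (without KO9) to 0.36 (without WT5). In Fabp6 only peak 1 passed the filter. Its raw counts were 11, 9, 19, 24 and 38 in WT1 to WT5 and 20, 9, 13, 17 and 16 in KO6 to KO10, and its 95% interval was -0.13 to 0.99 on the log2 scale. The other 4 Fabp6 peaks had between 0 and 16 counts per mouse, and peak 4 had 0 in KO8, KO9 and KO10, each of which allows up to 3 counts. In Fgf15, peak 3 passed, with an estimate of -0.14 (adjusted p = 0.752, edgeR) that ranged from -0.25 (without KO7) to -0.05 (without KO8) when 1 mouse was left out, and the other 2 peaks had 1 to 12 counts per mouse.

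**Figure D3:**
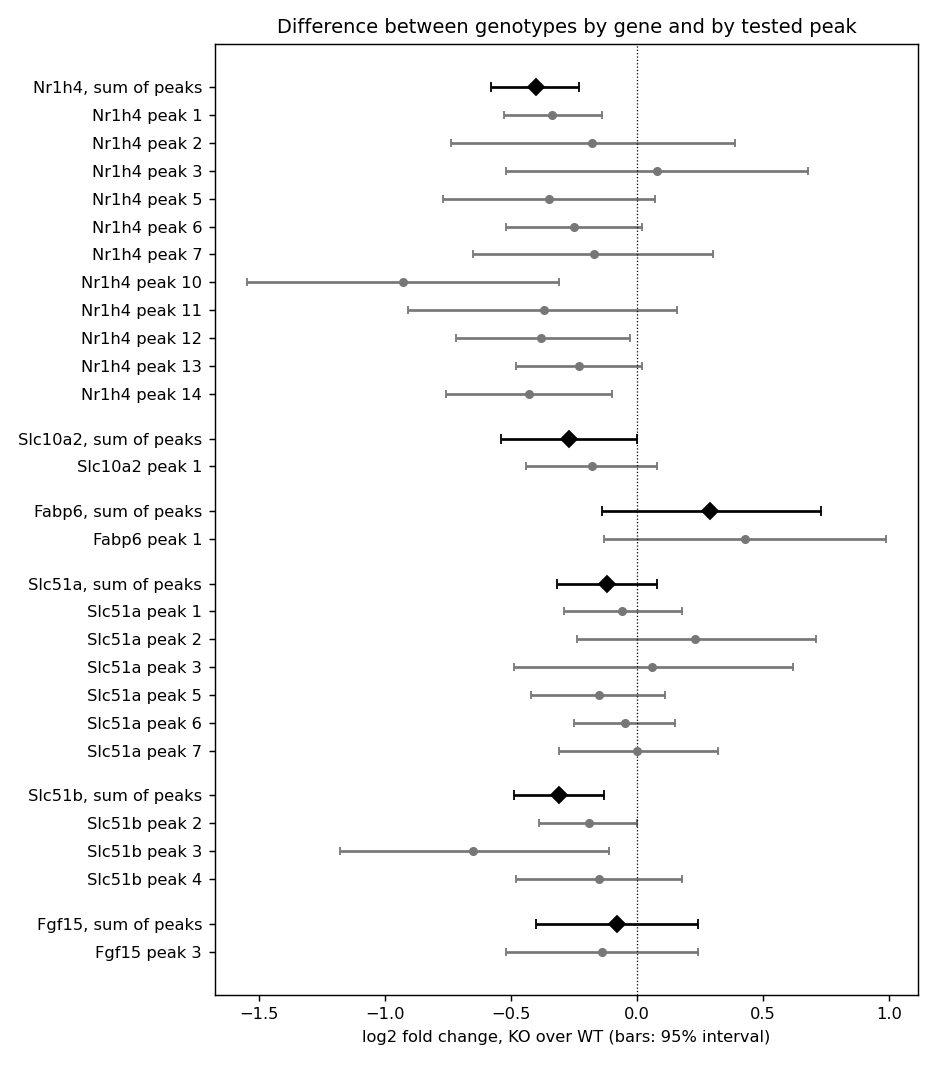
Log2 fold change of KO over WT mice with its 95% interval, for the summed counts of each gene (black diamonds) and for its tested peaks (grey circles). Intervals of the sums lie wholly below 0 for Nr1h4 and Slc51b, and 10 of the 11 Nr1h4 peaks have estimates below 0. Sums and peaks were scaled separately.

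How a gene's counts were shared among its peaks did not differ detectably with genotype. The strongest peak held 25.6% ± 1.55 of the Nr1h4 counts in WT and 25.3% ± 0.758 in KO mice, and 33.9% ± 1.19 and 33.4% ± 2.0 of those of Slc51a (SD, n = 5 each). The shares were 75.2% ± 3.28 and 76.8% ± 2.43 for Slc51b, and 54.4% ± 5.84 and 57.2% ± 8.0 for Fabp6. For Fgf15 they were 85.2% ± 5.71 in WT and 77.1% ± 11 in KO mice, where KO7 stood highest at 95.3%, and the difference was -12.8 percentage points without KO7 (exact permutation p = 0.0238). With all mice, exact two-sided permutation p-values of the 5 genes were between 0.183 and 0.675.

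Fabp6 was next set against each other gene of the pathway within a mouse. This removes a scale factor common to a library, but not a bias that differs with the level of counts. Relative to Nr1h4, the log2 ratio of Fabp6 was -4.78, -4.67, -4.85, -4.44 and -4.64 in WT1 to WT5 and -3.42, -4.65, -4.21, -3.92 and -3.84 in KO6 to KO10. KO7 was within the WT range and the other 4 KO mice above it. The difference of 0.67 had p = 0.0238 (exact two-sided permutation test), and p = 0.0595 when adjusted over the 5 ratios. Relative to Slc51b the ratio was -3.84 ± 0.230 in WT and -3.27 ± 0.370 in KO mice (SD, n = 5 each), a difference of 0.57 (exact permutation p = 0.0159, adjusted 0.0595), again with 4 KO mice above all WT mice. Neither passed 0.05 after that adjustment. Relative to Slc10a2, Slc51a and Fgf15 the differences were 0.51, 0.40 and 0.33, and their exact permutation p-values were 0.0556, 0.167 and 0.111. Fabp6 is shared by all 5 ratios, so they are not independent of each other, and KO6, the highest mouse in each, also had the low Slc51a value given above. The ratios were not run with loess offsets. With those, the summed log2 fold change was 0.03 for Fabp6 (0.29 as reported), -0.30 for Nr1h4 (-0.40) and -0.20 for Slc51b (-0.31). A part of depth in the ratios was not tested.

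**Figure D4:**
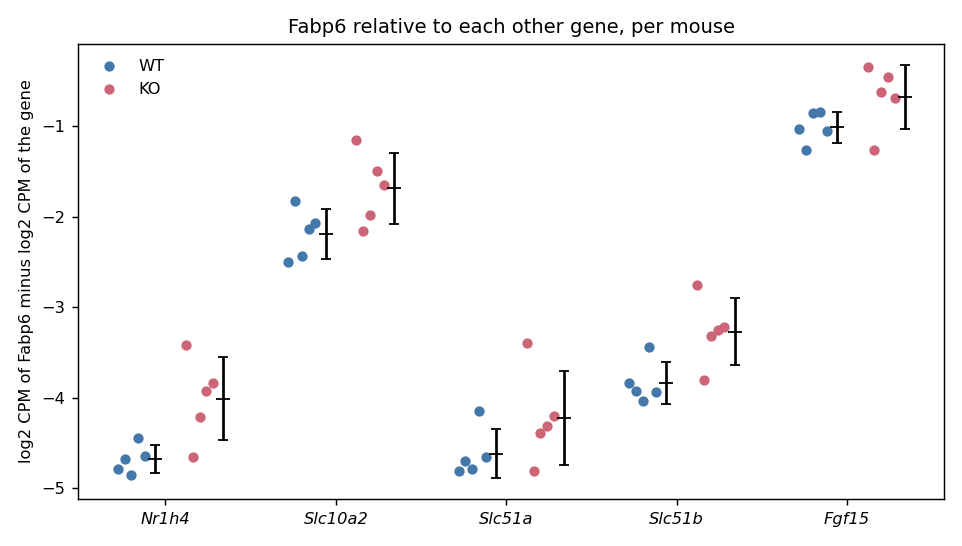
Log2 CPM of Fabp6 minus log2 CPM of each other gene (horizontal axis), with 1 point per mouse and the mean ± SD of 5 mice in black. Against Nr1h4, Slc51b and Fgf15, 4 of the 5 KO mice lie above all WT mice, while KO7 lies among them.

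The 10 entries before and after the peaks of each gene in the implied order, which do not carry its ID, were examined for comparison. Next to Nr1h4, 8 of 12 tested neighbours had a lower estimate in KO mice and 4 a higher one, with a median log2 fold change of -0.15 beside -0.34 for the tested peaks that carry its ID. Next to Slc51b the 8 tested neighbours were split 4 and 4 (median -0.01), next to Slc51a 8 of 13 were lower (median -0.02), and next to Fgf15 the 12 were split 6 and 6 (median -0.02). Next to Slc10a2, 8 of 9 were lower (median -0.36), a lower value than that of its own peak. Next to Fabp6, 8 of 13 were lower (median -0.14), while its tested peak had a higher mean in KO mice. These medians are descriptions, without a test.

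Among 59 genes that could be named and whose mean counts were within 2-fold of Fabp6, those with the most similar pattern over the 10 mice were Gm5105, Ubd, Dmp1, Masp2 and Grid2ip. The root mean square difference from Fabp6 in centred log2 CPM was 0.19 for Gm5105 and 0.23 to 0.29 for the others, with a median of 0.41 over the 59. The SD of Fabp6 itself over the 10 mice was 0.30, about the distance that a gene without any pattern would have, so the likeness of those at 0.29 is nominal. The symbols came from a table of genes the study chose on RNA from these genotypes, so the 59 are not a sample of all genes.

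**Figure D5:**
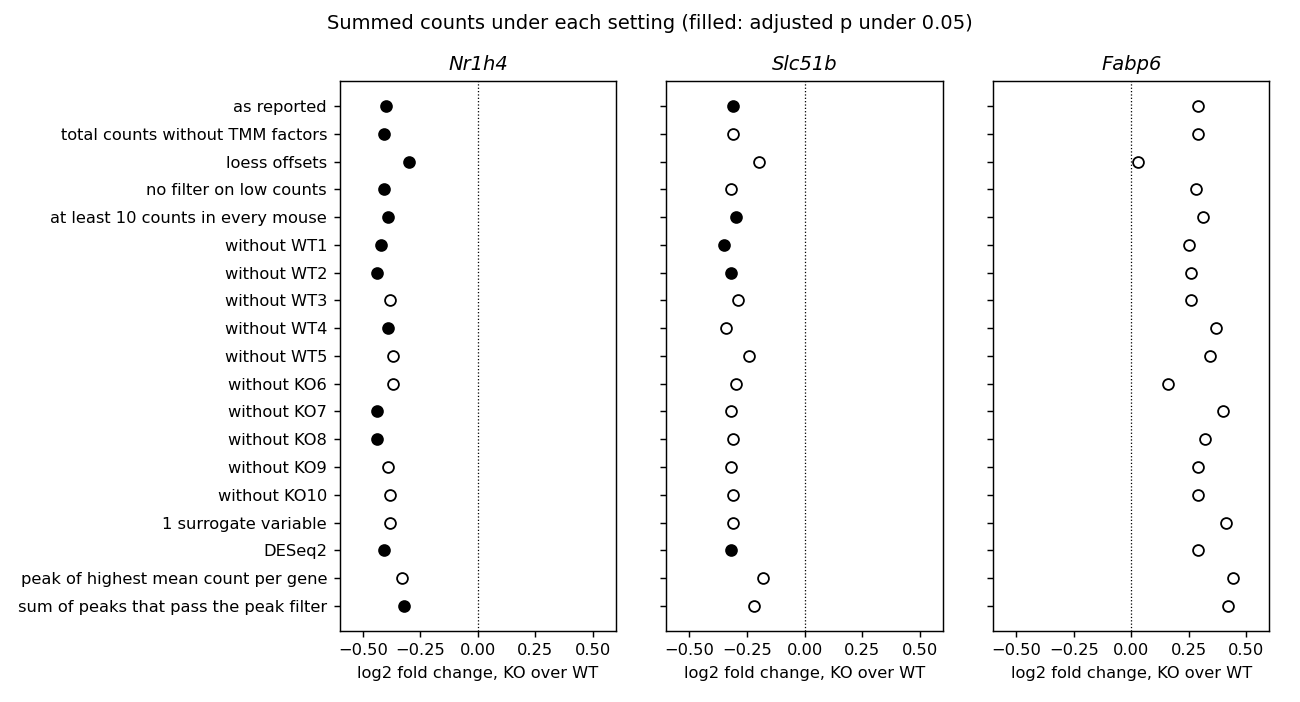
Log2 fold change of the summed counts of Nr1h4, Slc51b and Fabp6 (horizontal axis) as reported and under each of 18 alternatives (vertical axis), filled where the adjusted p was under 0.05. Nr1h4 and Slc51b lie below 0 throughout and are filled in part of the settings. Fabp6 lies above 0 throughout, nearest to it with loess offsets, and is never filled.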

How the data were processed

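Purified, sorted intestinal epithelial cells of 5 WT and 5 KO mice were profiled by ATAC-seq with paired-end reads, and the submitters' processing notes name mm10. Raw counts were deposited for a common peak set, each peak with an Ensembl gene ID, and a normalized signal that equals the count divided by 1 size factor per mouse, to within 2.24e-05. The aligner, peak caller, rule pairing peaks with genes, and handling of duplicates and of the transposase offset are not given in the sources used here. Counts of all peaks of an ID were summed per gene. Genotypes came from the labels, and 1 mouse is 1 replicate. KO was compared with WT by edgeR 4.0.16 (quasi-likelihood, TMM factors, its filter on low counts, R 4.3.3) over the whole table, with Benjamini-Hochberg adjustment over all features tested and a threshold of 0.05. Single values were compared by exact two-sided permutation over mice, with a smallest p of 0.00794, on log2 CPM with a prior count of 2. The fit was also run on counts simulated independently for each feature, with changes larger than those of the members, so that run does not vouch for their calls.

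The members and lists were chosen with earlier results of these data known. The plan was to name all 6 members, any listed gene past the threshold, a fixed set of listed genes, and the 5 genes most like Fabp6. Of the listed genes only Nr0b2 could be paired with an ID, so the rest of the fixed set is not given. Symbols of genes other than the members came from 302 pairs of ID and symbol in a table of the study chosen by RNA, which also holds Fabp6, Slc10a2 and Fgf15. That table paired 1 of 30 wider bile acid genes, 0 of 22 ileal and proximal enterocyte genes and 0 of 24 cell type markers, so the last 2 lists were not analysed here. Gene positions and promoters are those of RefSeq on GRCm38.p6, matched by symbol. The order of peaks was inferred from a running number that the order of entries implies. In it, 247 genes formed 21 runs for 21 chromosomes with 1 neighbouring pair out of order, and the peaks of 6 of 6 members were consecutive. Intervals cover counting error and the spread between these mice, while the floor of 3 counts covers counting error in 1 library alone. Alternatives were DESeq2 1.42.0, total counts, loess offsets (span 0.3), no filter, at least 10 counts in every mouse, each gene's strongest peak, the sum of peaks that pass the filter, a prior count of 0.5, the deposited normalized values, and leaving out each mouse. Those added after seeing the data were 1 surrogate variable (sva 3.50.0), the ratio of Slc51b to Slc51a, and the neighbouring peaks.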

Additional observations from a re-analysis of the deposited data

Results flagged for a closer look

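In 56 groups of 5 values (the members' sums and tested peaks, in each genotype, with the single Slc10a2 peak counted once, as its sum), 5 held a mouse whose log2 CPM lay far from the others by Dixon's criterion (a gap over 0.71 of the group's range). Chance flags about 1 in 20 groups. Slc51a was 6.13 in KO6, where the other KO mice had 6.54 to 6.67. Slc51a peak 2 was 3.06 in KO9, above 2.34 to 2.48 in the other KO mice. Nr1h4 peak 12 was 2.60 in KO6, below 3.24 to 3.41 in the other KO mice. In WT2, Nr1h4 peak 5 was 1.87 and peak 6 was 3.88, below 2.35 to 2.55 and 4.12 to 4.19 in the other WT mice. WT2 is the WT mouse with the fewest counts, 5202949, and the part of depth in these values was not tested.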

How the results depend on the processing

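No paired analysis was possible because WT and KO mice share no replicate number. Of the 6 members, 2 passed an adjusted p of 0.05 as reported. With total counts, loess offsets, no filter on low counts or the sum of peaks that pass the filter 1 passed, with 1 surrogate variable or the peak of highest mean count 0 passed, and without 1 mouse 0 to 2 passed. Nr1h4 had a log2 fold change of -0.38 with 1 surrogate variable (adjusted p = 0.0633, edgeR) and -0.33 by its strongest peak (0.0735), and -0.44 to -0.37 without 1 mouse. Slc51b had -0.31 with total counts (0.0734), -0.20 with loess offsets (0.176), -0.32 with no filter (0.0540), -0.31 with 1 surrogate variable (0.102), -0.18 by its strongest peak (0.279) and -0.22 by the sum of peaks that pass the filter (0.126). It had -0.35 to -0.24 without 1 mouse. The cause was not tested. DESeq2 called both, at adjusted p-values of 0.00201 and 0.0346. Fabp6 kept its sign and did not pass in any of 18 alternatives (0.03 to 0.44).

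Nr0b2 turned to 0.03 with loess offsets, 0.06 by its strongest peak and 0 by the sum of peaks that pass the filter, and Fgf15 to 0.01 with 1 surrogate variable. Without 1 mouse, Fabp6 relative to Nr1h4 ranged from 0.53 to 0.83, to Slc10a2 from 0.37 to 0.62, to Slc51a from 0.19 to 0.54, to Slc51b from 0.44 to 0.70 and to Fgf15 from 0.25 to 0.48. The last, and those to Slc10a2 and Slc51a, passed an unadjusted p of 0.05 without KO7 alone. The share of the strongest peak, KO minus WT in percentage points, ranged from -0.363 to 4.53 for Fabp6, -0.887 to 0.190 for Nr1h4, -1.16 to 0.139 for Slc51a, 0.835 to 2.99 for Slc51b and -12.8 to -5.39 for Fgf15. Signs also turned in single peaks near 0. Nr1h4 peak 2 was 0.04 with 1 surrogate variable, and peak 3 was -0.17 with loess offsets and -0.09 with no filter (-0.07 to 0.19 without 1 mouse). With loess offsets, Slc51a peaks 1, 3 and 6 were 0.01, -0.10 and 0.02, and with no filter peak 3 was -0.10 and peak 7 was -0.16. Peak 7 was -0.06 with total counts, -0.11 with 1 surrogate variable and 0 with DESeq2. Without 1 mouse, Slc51a peak 1 ranged from -0.12 to 0.04, peak 3 from -0.10 to 0.23, peak 6 from -0.09 to 0 and peak 7 from -0.12 to 0.08. The lists of ileal and proximal enterocyte genes could not be run, as their IDs were not paired with symbols here.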
